A study of Homo sapiens with 6 samples.

Results

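Transcripts of 10 cytosolic heat shock chaperones and their helpers were followed in Cisplatin-treated kidney cells with and without knockdown of NAT10. The genes, HSPA8, HSPA1A, HSPA1B, HSPA4, HSPH1, DNAJB1, BAG3, HSP90AA1, HSP90AB1 and HSPB1, were chosen by symbol and make up 10 of the 62754 genes in the count table. HK-2, an immortalised human proximal tubule epithelial cell line, received Cisplatin together with either a negative control siRNA (CP+siNC) or siRNA against NAT10 (CP+siNAT10). NAT10 encodes an acetyltransferase that modifies RNA and protein. There were 3 libraries per group, and nothing in the labels tells whether these came from separate cultures, so p-values measure the spread between these libraries, which may be technical. Cisplatin, a platinum drug that crosslinks DNA and injures the proximal tubule, was present in both groups. A response to the drug itself can therefore not be read from these libraries.

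Heat shock proteins bind unfolded or partly folded polypeptides and help them to fold, to be held in solution or to be passed to degradation. HSP70 proteins work through cycles of ATP hydrolysis, which J-domain proteins start and nucleotide exchange factors end, and HSP90 proteins act later on clients that include kinases and steroid receptors. When proteins unfold, heat shock factor 1 (HSF1) binds repeats of a short element in the promoters of many of these genes and raises their transcription. In kidney, HSP70 and HSPB1 are well known as proteins induced in tubules after ischaemic or toxic injury.

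Sequencing gave 19321665, 21602988 and 19464027 counts in the CP+siNC libraries, and 20793709, 21531774 and 25192736 counts in the CP+siNAT10 libraries. The 10 genes took 1.56% ± 0.0531 of the counts in CP+siNC and 1.51% ± 0.0389 in CP+siNAT10 (SD, n = 3 each). All 10 had at least 10 counts in 3 libraries, so none was low, and all 10 were among the 19874 genes tested. Levels within a gene are given as CPM, counts scaled to a library of 1000000 after TMM adjustment, and levels between genes as CPM per 1000 bases of the gene length in the table (RPKM).

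The targeted gene was measured first. NAT10 stood at 75.8, 71.4 and 73.2 CPM in the CP+siNC libraries and at 41.3, 40.5 and 42.4 CPM in the CP+siNAT10 libraries. All libraries with NAT10 siRNA lay below all controls, so that no library went against its label, and the log2 fold change was -0.82 ± 0.0426 (standard error; Benjamini-Hochberg adjusted p = 2.79e-15, edgeR quasi-likelihood test).

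The labelled cell type was compared with its markers. Of 10 proximal tubule markers, only GGT1, SLC5A2 and AQP1 had enough counts to be tested, SLC22A6 had no count in any library, and the endocytic receptor LRP2 had 3 counts over all 6 libraries. Most of the receptors and transporters that define the differentiated proximal tubule were thus at or near 0. Epithelial keratins were abundant, led by KRT8 at 1455 ± 21.1 CPM in CP+siNC and 1450.0 ± 18.7 CPM in CP+siNAT10 (SD, n = 3 each), while CDH1 had 6 counts in all. KRT8 and KRT19 did not pass the test, but the other tested epithelial markers, named after their values were seen, moved between the groups. KRT18 fell from 346 ± 6.00 to 269 ± 7.24 CPM, with a log2 fold change of -0.36 (standard error 0.0329; Benjamini-Hochberg adjusted p = 3.79e-10, edgeR quasi-likelihood test). KRT7 fell by 0.15 on the log2 scale, and EPCAM rose by 0.31 from 15.5 ± 1.12 CPM. Summed over the list, the 6 epithelial markers gave 2065 to 2118 CPM in CP+siNC and 1990.0 to 2019 CPM in CP+siNAT10, and the 10 proximal tubule markers gave 43.0 to 44.7 CPM and 38.9 to 42.0 CPM. Within the proximal tubule list GGT1 fell by 0.28 on the log2 scale and SLC5A2 rose by 0.31, while AQP1 did not pass.

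The leukocyte list moved with the groups. Its 4 markers summed to between 197.6 and 215.8 CPM in CP+siNC and between 265 and 288 CPM in CP+siNAT10, nearly all of it CD68, a lysosomal protein that epithelial cells also make. PTPRC, the pan-leukocyte surface phosphatase, averaged 0.418 ± 0.0521 CPM in CP+siNC and 0.824 ± 0.446 CPM in CP+siNAT10 (SD, n = 3 each). Its CP+siNAT10 libraries stood far apart, at 0.475, 1.33 and 0.671 CPM. PTPRC was called higher (Benjamini-Hochberg adjusted p = 0.0411, edgeR quasi-likelihood test). CD3E and LYZ had 38 and 12 counts over all libraries. The 5 fibroblast and pericyte markers summed to 10.4 to 11.6 CPM in CP+siNC and 13.0 to 15.6 CPM in CP+siNAT10, led by COL1A1, and the 4 endothelial markers stayed at or below 0.514 CPM in every library. The part of these markers in the results below was not tested.

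Per length, HSP90AA1 and HSP90AB1 stood far above the others of the 10 genes. How the lengths in the table were derived is not given. They differ from those of the GENCODE 29 transcript with the longest coding sequence by unequal amounts, for DNAJB1 8188 against 2264 bases and for HSPA8 4849 against 2463 bases, but for BAG3 2737 against 2571 bases. Which transcripts the cells make was not measured, so levels are given by both lengths, where the second was added after seeing the data.

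By the lengths in the table, HSP90AA1 reached 1489 ± 68.9 RPKM and HSP90AB1 1485 ± 90.4 RPKM in CP+siNC (SD, n = 3), which differed by less than their spread. HSPA1B (278 ± 7.58 RPKM), HSPA8 (207 ± 1.37 RPKM) and HSPA1A (190.4 ± 3.98 RPKM) followed, each separated from the next by more than the SD of either. HSPH1 (89.4 ± 2.62 RPKM) and HSPA4 (88.1 ± 2.01 RPKM) were level within their spread, and HSPB1 was at 78.6 ± 2.61 RPKM. BAG3 (42.0 ± 0.618 RPKM) and DNAJB1 (27.5 ± 0.387 RPKM) were lowest on this scale. The order was the same in CP+siNAT10, where HSP90AA1 stood at 1415 ± 53.7 RPKM and DNAJB1 at 25.0 ± 0.394 RPKM.

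By the length of the single transcript, HSP90AA1 (2162 ± 100.1 CPM per 1000 bases in CP+siNC) lay above HSP90AB1 (1655 ± 100.7). HSPA8 (407 ± 2.70) then came before HSPA1B (278 ± 7.57), HSPH1 (210.1 ± 6.16), HSPA1A (184 ± 3.85) and HSPB1 (140.4 ± 4.67). DNAJB1 (99.6 ± 1.40) and HSPA4 (92.6 ± 2.11) followed, and BAG3 (44.7 ± 0.658) was lowest. The order was again the same in CP+siNAT10. Both lengths put HSP90AA1 and HSP90AB1 highest of the 10 genes, while the order of most others depended on the length used. HSPA1B lay above HSPA1A by both, but the split of reads between these copies is uncertain, as described below.

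**Figure D1:**
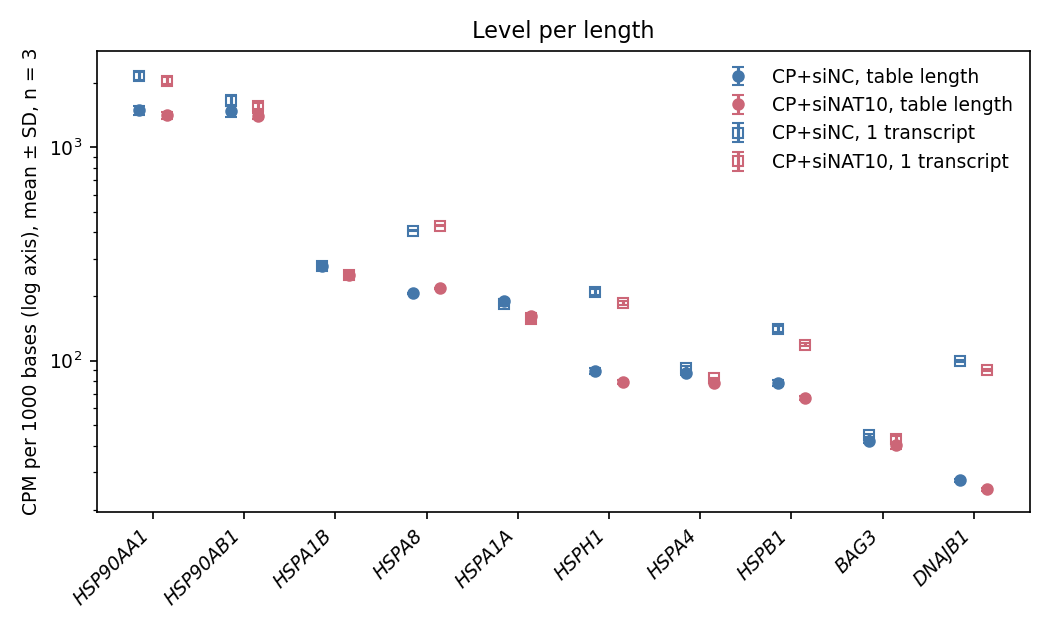
Level per length of the 10 chaperone genes in CPM per 1000 bases on a log axis, as mean ± SD of 3 libraries for CP+siNC (blue) and CP+siNAT10 (red), ordered by the CP+siNC mean by table length. Filled circles use the length in the table and open squares that of 1 transcript; in CP+siNC, DNAJB1 lies at 27.5 by the first and 99.6 by the second.

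The promoters of the 10 genes were searched for the heat shock element, the feature by which the family is best known. Promoter sequences of RefSeq (GRCh38.p14) matched all 10 symbols with 15 annotated starts, and the 250 bases before each start were read. The element was spelled as 3 alternating units, GAANNTTCNNGAA or its reverse complement TTCNNGAANNTTC, and as the 2-unit core GAANNTTC, which reads the same on both strands and lies within both longer forms. Of all 35116 promoter stretches of this length, 0.441% held a 3-unit match and 5.78% held the core. HSPA8, HSP90AA1 and HSP90AB1 had 3-unit matches, shown here 5′ to 3′ on the gene's strand with the match in capitals because they are the longest matches in the family:
HSPA8, chr11:123062346-123062374, minus strand: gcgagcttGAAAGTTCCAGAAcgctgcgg
HSPA8, chr11:123062171-123062199, minus strand: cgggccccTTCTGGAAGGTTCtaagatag
HSP90AA1, chr14:102087112-102087140, minus strand: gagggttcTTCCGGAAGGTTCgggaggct
HSP90AB1, chr6:44247770-44247798, plus strand: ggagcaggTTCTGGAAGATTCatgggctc
HSP90AB1, chr6:44247823-44247851, plus strand: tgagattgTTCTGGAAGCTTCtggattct

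The matches of HSPA8 began 230 and 55 bases before its start, that of HSP90AA1 88 bases before, and those of HSP90AB1 165 and 112 bases before. HSP90AA1 has 2 listed starts and HSP90AB1 3, and the matches belong to 1 start of each gene. The starts are those of RefSeq, and those next to the matches of HSPA8, HSP90AA1, HSP90AB1 and DNAJB1 lie inside the gene bounds of the count table that are given with each gene below. In HSPA1A, HSPA1B, HSPB1 and DNAJB1 only the 2-unit core was found, and it is shown with its neighbouring bases, again with the match in capitals:
HSPA1A, chr6:31815429-31815452, plus strand: aaaccctgGAATATTCccgacctg
HSPA1B, chr6:31827625-31827648, plus strand: aacccctgGAATATTCccgacctg
HSPB1, chr7:76302483-76302506, plus strand: taacgagaGAAGGTTCcagatgag
DNAJB1, chr19:14518459-14518482, minus strand: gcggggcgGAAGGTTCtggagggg
DNAJB1, chr19:14518429-14518452, minus strand: gggctctgGAAGCTTCcgccggac

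The core began 106 bases before the start of HSPA1A and 105 bases before that of HSPA1B. It began 182 bases before the start of HSPB1, and 77 and 47 bases before a start of DNAJB1. HSPA4, HSPH1 and BAG3 had neither form in these 250 bases. A match is a description of these letters and not a site of binding, and the absence of a match says only that the letters are not in this window.

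With NAT10 siRNA, 6 of the 10 genes fell, namely HSPA1A, HSPB1, HSPH1, HSPA4, DNAJB1 and HSPA1B, where 22.3% of all tested genes fell. HSPA8 was the 1 gene that rose, where 21.8% of all tested genes rose. Its rise lost significance under 9 of 14 alternatives, among them other settings of the processing and fits with a library left out. HSP90AA1, HSP90AB1 and BAG3 did not pass the test. A gene was called at an adjusted p under 0.05 without a limit on its fold change. The libraries of the groups did not overlap for 7 of the 10 genes, and for 51.4% of all tested genes. In cells measured in bulk, fewer cells with a transcript and less transcript per cell cannot be told apart.

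All 10 genes averaged above 100 CPM, where small differences are more readily called. Of the 2012 tested genes at or above that mean, 39.5% fell and 30.3% rose, and the groups did not overlap for 73.6%. The median log2 fold change of the 10 chaperones was -0.14, beside 0.0070 for all tested genes and -0.024 for those at or above 100 CPM. The median size of change was 0.14 for the 10 genes, 0.21 for all tested genes and 0.15 for the abundant genes. The chaperones thus shifted by amounts common among abundant genes, and neither their count nor their median is read as particular to them. HSPB1, with the largest value in the main fit and within its standard error of HSPA1A, was exceeded in size of change by 45.2% of all tested genes.

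**Figure D2:**
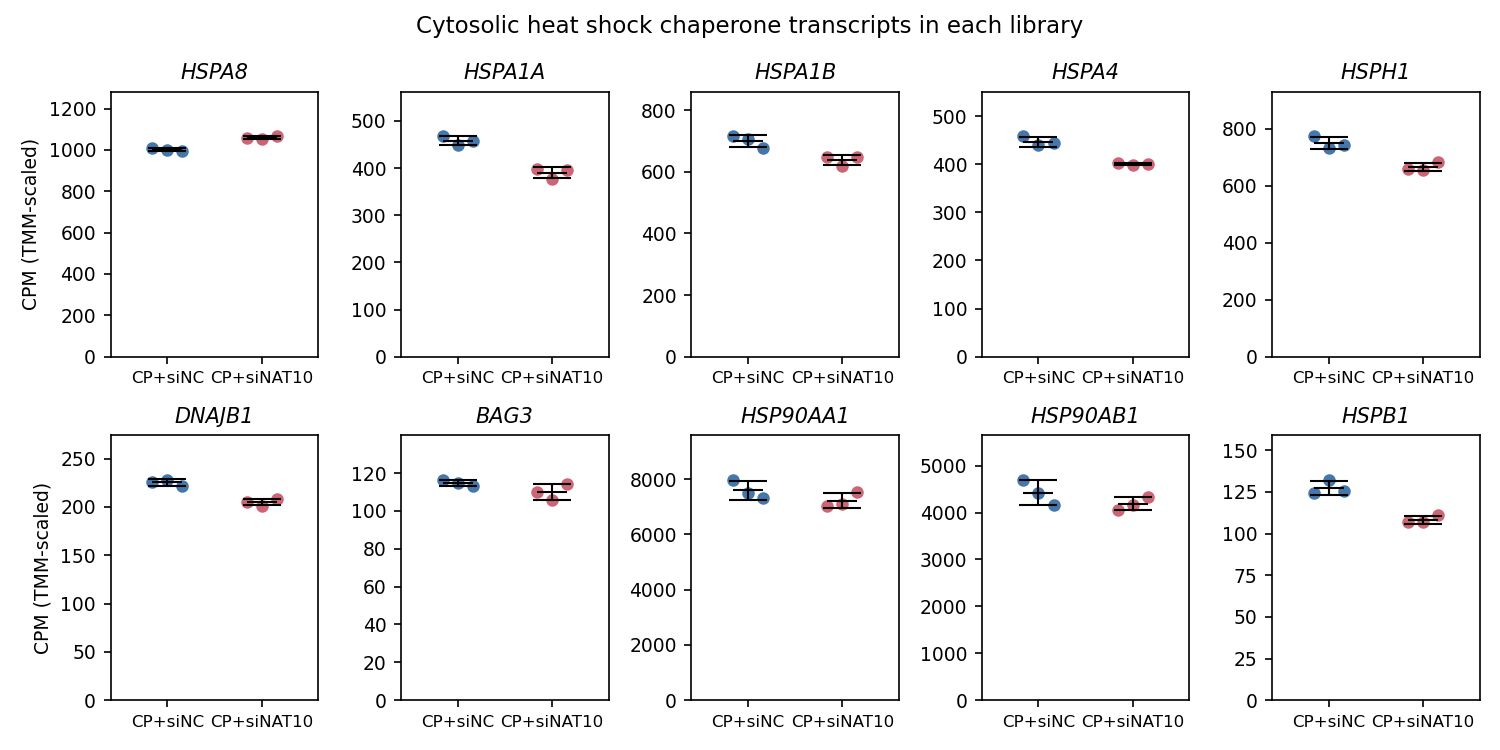
Level of each chaperone gene in every library, in CPM from 0 on a scale of its own, with 3 CP+siNC libraries (blue) and 3 CP+siNAT10 libraries (red). Points are libraries, the short line is the mean and the bars are ± 1 SD (n = 3); the groups overlap for HSP90AA1, HSP90AB1 and BAG3.

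**Figure D3:**
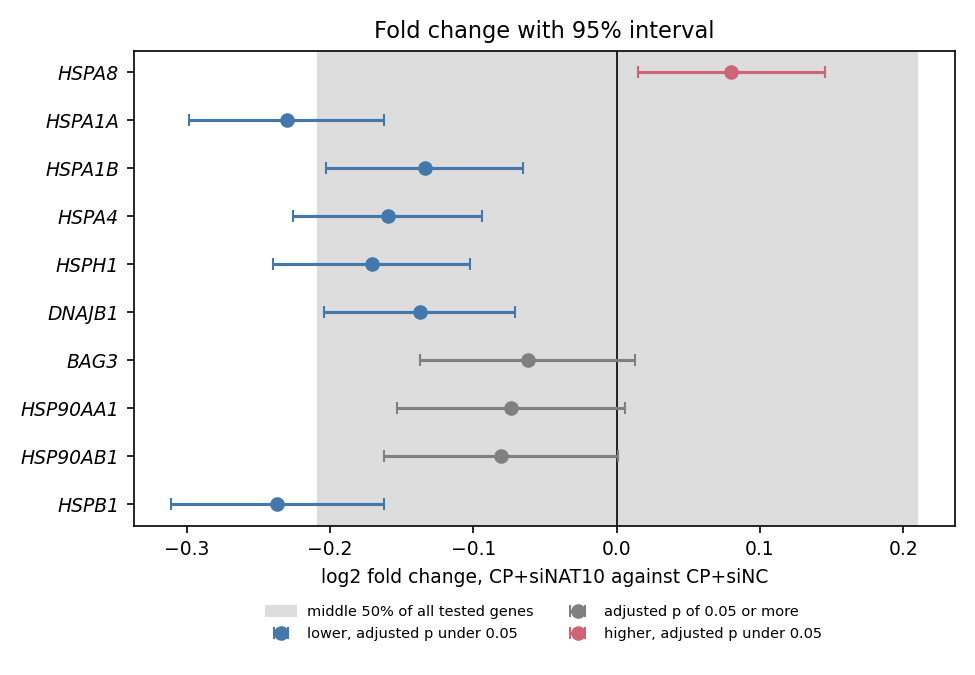
Log2 fold change of CP+siNAT10 against CP+siNC with its 95% interval for the 10 chaperone genes, coloured by the outcome of the test, with the grey band spanning the middle 50% of all tested genes. HSPA1A at -0.23 and HSPB1 at -0.24 lie outside this band, and HSPA8 at 0.080 is the only gene to the right of 0.

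The HSP70 genes did not move alike. HSPA8 (ENSG00000109971, chromosome 11 from 123057489 to 123063230, minus strand, on GRCh38) encodes HSC70, the constitutive cytosolic HSP70 that also uncoats clathrin vesicles. It was measured at 1008, 1002 and 995 CPM in CP+siNC and at 1058, 1051 and 1067 CPM in CP+siNAT10. Its libraries were close to each other within a group, and the lowest CP+siNAT10 library lay above the highest control. The log2 fold change was 0.080 ± 0.0318 (standard error), a level of 105.7% of the control (Benjamini-Hochberg adjusted p = 0.0426, edgeR quasi-likelihood test). The direction held under each alternative, but the adjusted p ran from 0.00152 to 0.132 over the alternatives, and median-of-ratios (0.0548) and upper quartile scaling (0.0725) both put it above 0.05. Leaving out any library other than CP+siNC replicate 1 also ended the call, with log2 fold changes from 0.071 to 0.086.

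HSPA1A and HSPA1B encode the stress-inducible HSP70 and lie near each other on chromosome 6, HSPA1A (ENSG00000204389) from 31815543 to 31817946 and HSPA1B (ENSG00000204388) from 31827738 to 31830254, both on the plus strand. HSPA1A was measured at 468, 449 and 457 CPM in CP+siNC and at 398, 377 and 395 CPM in CP+siNAT10. All its CP+siNAT10 libraries lay below all controls. The log2 fold change was -0.23 ± 0.0332 (standard error), which left 85.3% of the control level (Benjamini-Hochberg adjusted p = 1.48e-06, edgeR quasi-likelihood test). HSPA1B was measured at 716, 705 and 679 CPM in CP+siNC and at 648, 619 and 647 CPM in CP+siNAT10. Here too the groups were apart, by a smaller margin, and the log2 fold change was -0.13 ± 0.0335 (standard error; adjusted p = 0.00162 in the same edgeR test).

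The split of reads between these copies is uncertain. Each gene is a single exon, and their coding sequences of 1923 bases differ at 4 positions in the GENCODE 29 transcripts (99.8% identity). Of all stretches of 150 bases, the length of a read, 67.1% of those in the HSPA1A transcript and 70.0% of those in the HSPA1B transcript also occur in another annotated gene, in most cases the other copy. No such stretch was found in the transcript with the longest coding sequence of each of the other 8 genes. Other transcripts of these genes were not examined. The reads were paired, and whether a pair could be placed by its other read was not examined either. When the counts of both copies were added, the sum stood at 1158 ± 24.3 CPM in CP+siNC and 1028 ± 27.0 CPM in CP+siNAT10 (SD, n = 3 each). The log2 fold change of the sum was -0.17 with a standard error of 0.0335 (Benjamini-Hochberg adjusted p = 1.1e-04, edgeR quasi-likelihood test). As the counts of both copies fell, their sum had to fall too and is no separate evidence. The difference between -0.23 and -0.13 was not tested.

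A further gene model overlaps HSPA1B on its strand. ENSG00000285565, which starts within HSPA1B at 31828834 and ends at 31839719, shares 920 of its exonic bases with HSPA1B in GENCODE 29. Its count was 86.8%, 86.7% and 86.4% of that of HSPA1B in the CP+siNC libraries and 85.9%, 86.2% and 85.9% in the CP+siNAT10 libraries. Its log2 fold change was -0.15 ± 0.0335 (standard error; Benjamini-Hochberg adjusted p = 7.2e-04, edgeR quasi-likelihood test). With counts at so fixed a proportion, the transcripts of these gene models cannot be told apart.

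Ratios within a library do not depend on the scaling between libraries. The summed counts of HSPA1A and HSPA1B were 1.17, 1.15 and 1.14 times those of HSPA8 in CP+siNC, and 0.988, 0.949 and 0.976 times in CP+siNAT10. All control ratios thus lay above all ratios with NAT10 siRNA. How reads shared by HSPA1A and HSPA1B were counted is not given, so the ratio compares libraries and does not give the proportion of the transcripts. On the log2 scale the difference was -0.25, from 0.21 ± 0.021 to -0.043 ± 0.030 (SD, n = 3 each). The exact two-sided permutation test gave p = 0.10, the smallest that 3 against 3 libraries allow, and 0.30 after Benjamini-Hochberg adjustment over 3 ratios.

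**Figure D4:**
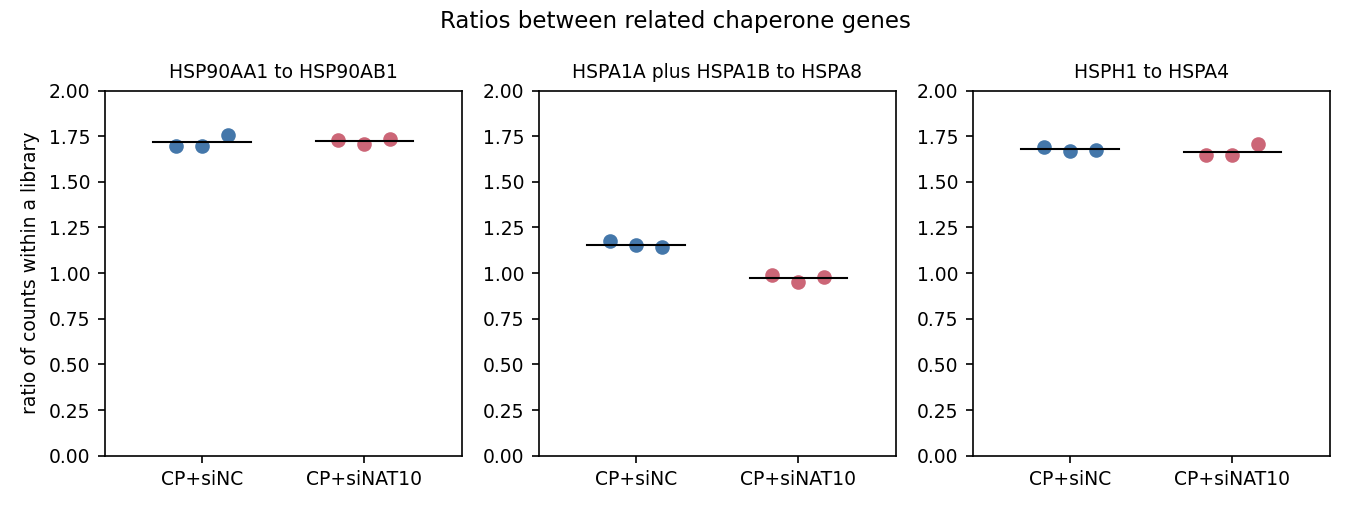
Ratio of counts between related chaperone genes within each library, on axes from 0, for CP+siNC (blue) and CP+siNAT10 (red), with lines at the group means. The ratio of HSPA1A plus HSPA1B to HSPA8 lies between 1.14 and 1.17 in CP+siNC and between 0.949 and 0.988 in CP+siNAT10, and the other ratios overlap between groups.

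HSPA4 and HSPH1 encode HSP110 proteins, large relatives of HSP70 that act on it as nucleotide exchange factors. HSPA4 (ENSG00000170606, chromosome 5 from 133052013 to 133104477, plus strand) was measured at 458, 439 and 443 CPM in CP+siNC and at 402, 398 and 399.9 CPM in CP+siNAT10. The CP+siNAT10 libraries were almost level with each other and all lay below the controls, with a log2 fold change of -0.16 and a standard error of 0.0321 (Benjamini-Hochberg adjusted p = 1.52e-04, edgeR quasi-likelihood test). HSPH1 (ENSG00000120694, chromosome 13 from 31134973 to 31162388, minus strand) was measured at 775, 733 and 743 CPM in CP+siNC and at 661, 655 and 682 CPM in CP+siNAT10. It fell by 0.17 on the log2 scale with a standard error of 0.0334, again with no overlap of the groups (adjusted p = 1.08e-04 in the same edgeR test). The ratio of HSPH1 to HSPA4 within a library was between 1.67 and 1.69 in CP+siNC and between 1.64 and 1.71 in CP+siNAT10. The log2 difference of this ratio was -0.011 (exact two-sided permutation p = 0.60, and 0.80 after Benjamini-Hochberg adjustment over 3 ratios). Leaving out each library in turn gave differences from -0.029 to -0.0025.

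DNAJB1 (ENSG00000132002, chromosome 19 from 14514769 to 14560262, minus strand) encodes HSP40, the J-domain protein that delivers clients to HSP70 and starts its ATP hydrolysis. It was measured at 226, 228 and 222 CPM in CP+siNC and at 205, 201 and 208 CPM in CP+siNAT10. The groups did not overlap, and the log2 fold change was -0.14 ± 0.0325 (standard error; Benjamini-Hochberg adjusted p = 9.38e-04, edgeR quasi-likelihood test). On the opposite strand of this locus lie TECR and, within annotated exons of both, MIR639. The count of MIR639 was 16.4% to 17.9% of that of DNAJB1 in CP+siNC and 18.8% to 19.7% in CP+siNAT10. That of TECR, which shares 211 exonic bases with DNAJB1, was 24.9% to 26.4% in CP+siNC and 28.5% to 29.7% in CP+siNAT10. Whether the strand of reads was used in counting is not given in the sources used here. The MIR639 counts, but not those of TECR, were then taken off DNAJB1, an alternative chosen after seeing the data. This gave a log2 fold change of -0.17 ± 0.0332 (standard error).

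BAG3 (ENSG00000151929, chromosome 10 from 119651380 to 119676707, plus strand) is an exchange factor of HSP70 that links it to small heat shock proteins and to selective autophagy. Its levels were 117, 115 and 113 CPM in CP+siNC and 110.0, 106 and 114 CPM in CP+siNAT10. The highest CP+siNAT10 library lay above the lowest control. The log2 fold change of -0.062 had a 95% interval from -0.14 to 0.013 and missed the threshold (Benjamini-Hochberg adjusted p = 0.178, edgeR quasi-likelihood test). Leaving out each library in turn gave values from -0.089 to -0.034, and scaling by library size only gave -0.024. BAG3 passed under none of these.

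Relative to their means, the HSP90 genes had the widest spread of the 10 between CP+siNC libraries. HSP90AA1 (ENSG00000080824, chromosome 14 from 102080742 to 102139465, minus strand), the more inducible form, was measured at 7982, 7482 and 7305 CPM in CP+siNC and at 7013, 7098 and 7524 CPM in CP+siNAT10. The highest CP+siNAT10 library exceeded 2 of the 3 controls. Its log2 fold change of -0.074 had a 95% interval from -0.15 to 0.0060 (Benjamini-Hochberg adjusted p = 0.129, edgeR quasi-likelihood test). HSP90AB1 (ENSG00000096384, chromosome 6 from 44246166 to 44253883, plus strand), the constitutive form, was measured at 4702, 4412 and 4164 CPM in CP+siNC and at 4058, 4164 and 4335 CPM in CP+siNAT10. These groups overlapped as well, and the log2 fold change of -0.081 had a 95% interval from -0.16 to 0.0012 (adjusted p = 0.104 in the same edgeR test).

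In both HSP90 genes the first CP+siNC library was the highest of all 6. Without CP+siNC replicate 3, the lowest control, both genes passed the test, with log2 fold changes of -0.10 and -0.13. The adjusted p over all alternatives ran from 0.0466 to 0.414 for HSP90AA1 and from 0.0127 to 0.435 for HSP90AB1 with edgeR's quasi-likelihood test or the other tools. The ratio of HSP90AA1 to HSP90AB1 within a library was 1.698, 1.696 and 1.754 in CP+siNC and 1.728, 1.705 and 1.736 in CP+siNAT10. The log2 difference was 0.0059 (exact two-sided permutation p = 0.80, and 0.80 after Benjamini-Hochberg adjustment over 3 ratios). The smallest p that 3 against 3 libraries allow is 0.10, so this test cannot show whether the ratio was stable.

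HSPB1 (ENSG00000106211, chromosome 7 from 76302673 to 76304292, plus strand) encodes HSP27, a small heat shock protein that holds unfolded proteins without using ATP and binds actin filaments. It was measured at 124, 132 and 126 CPM in CP+siNC and at 107, 107 and 111 CPM in CP+siNAT10. All libraries with NAT10 siRNA lay below all controls. With a log2 fold change of -0.24 and a standard error of 0.0362, HSPB1 was left at 84.9% of the control level (Benjamini-Hochberg adjusted p = 3.76e-06, edgeR quasi-likelihood test).

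Processed pseudogenes held few counts beside these genes. The 5 listed pseudogenes of HSP90AA1 held counts equal to 0.900% of the gene's own over all libraries, and the 6 of HSP90AB1 1.07%. The 17 of HSPA8 held 0.581%, the 2 of HSPB1 0.646% and the 2 of DNAJB1 0.0292%. No pseudogene was listed under the symbols of HSPA1A, HSPA1B, HSPA4, HSPH1 or BAG3. The pseudogene share of HSPB1 was between 0.469% and 0.635% in CP+siNC and between 0.533% and 0.960% in CP+siNAT10. Reads that fit a gene and a pseudogene equally well may be missing from these counts, and their part in the results was not tested.

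The genes most like the 3 chaperones with the smallest p were sought among 7461 other genes of at least 20 CPM, by the root mean square distance of log2 CPM, centred on each gene's mean, over the 6 libraries. PSMC3IP was nearest to HSPA1A at a distance of 0.0113, followed by ATP5F1C and RNASEK. PTGR1 was nearest to HSPB1 at 0.0155, followed by WARS1 and SUZ12, and ZFC3H1 was nearest to HSPH1 at 0.00959, followed by the proteasome subunit PSMA5 and ENSG00000283321. No other chaperone of the lists was among these 9 genes. The listed chaperones are a small part of the 7461 candidates, so this absence does not show whether they moved together. Their log2 fold changes lay between -0.25 and -0.16.

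Further genes of the chaperone system were described by list, where genes that are given only to spell out a count of 5 or fewer were named after their values were seen, as were HSPA6, STUB1 and CRYAB. The counts of each list stand beside 22.3% lower and 21.8% higher among all tested genes, and 39.5% and 30.3% among those at or above 100 CPM, and none is read as particular to its list. Among the heat shock factors, 4 of 5 genes were tested. HSF1, the factor that answers unfolded protein, rose from 34.6 ± 3.78 to 41.8 ± 0.485 CPM (SD, n = 3 each), with a log2 fold change of 0.27 (standard error 0.0565; Benjamini-Hochberg adjusted p = 2.78e-04, edgeR quasi-likelihood test). HSF2, which can pair with HSF1, fell from 32.6 ± 1.57 to 27.1 ± 1.04 CPM, with a log2 difference of -0.26 (standard error 0.0531; adjusted p = 1.51e-04 in the same edgeR test). HSBP1, a small protein that binds HSF1 and limits its activity, fell by 0.12 on the log2 scale, HSF4 at 0.064 did not pass, and HSF5 had no counts.

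Other HSP70 and HSP110 genes were all tested, and 5 of 8 fell while 1 rose. Under some alternatives 4 fell, among them DESeq2, scaling by library size only and no filter on low counts. The fits without CP+siNC replicate 1 or without CP+siNAT10 replicate 1 also gave 4. HSPA13, a HSP70 relative found with microsomes, fell from 42.7 ± 1.76 to 19.8 ± 0.576 CPM (SD, n = 3 each), with a log2 fold change of -1.11 (standard error 0.0525; Benjamini-Hochberg adjusted p = 4.66e-16, edgeR quasi-likelihood test). HSPA4L, the third HSP110 gene, fell from 114.1 ± 2.30 to 75.6 ± 1.43 CPM, with a log2 difference of -0.59 (standard error 0.0367). HSPA14, part of the ribosome-associated complex and the most abundant of this list per length, fell by 0.27 on the log2 scale. HSPA1L (-0.64) and HSPA2 (-0.14) also fell, HSPA12A (0.42) rose, and the strictly inducible HSPA6 was measured at 4.47 ± 0.519 and 3.61 ± 0.494 CPM and did not pass. The median log2 fold change of the list was -0.28.

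J-domain proteins moved in both directions. Of 15 tested, 6 fell and 4 rose, and the median log2 fold change was -0.014. DNAJB4, a close relative of DNAJB1, fell from 205 ± 15.2 to 113 ± 5.16 CPM (SD, n = 3 each), with a log2 fold change of -0.86 (standard error 0.0432; Benjamini-Hochberg adjusted p = 1.48e-15, edgeR quasi-likelihood test). DNAJC2, the J-domain partner of HSPA14 on the ribosome, rose from 349.8 ± 14.9 to 557 ± 10.2 CPM, with a log2 difference of 0.67 (standard error 0.0346). These partners thus moved in opposite directions. DNAJA1, the most abundant of the list per length, fell by 0.18 on the log2 scale, and DNAJC5 (0.23), DNAJC21 (0.14) and DNAJC7 (0.099) rose.

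Of 8 other exchange factors and regulators of HSP70, 4 fell and none rose with edgeR's quasi-likelihood test, with a median log2 fold change of -0.10. At an unadjusted p under 0.05, 1 of them, BAG6, was higher, none rose with DESeq2 or edgeR's exact test, and 1 rose with scaling by library size only. BAG5 fell from 120.2 ± 3.59 to 92.7 ± 3.62 CPM (SD, n = 3 each), with a log2 fold change of -0.37 (standard error 0.0380). BAG2, which inhibits the ubiquitin ligase STUB1, fell by 0.27, ST13, which stabilises client-bound HSP70, fell by 0.20, and BAG4 fell by 0.16 on the log2 scale. STUB1 itself was measured at 91.0 ± 5.26 and 88.7 ± 2.84 CPM and did not pass.

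Of the HSP90 cochaperones, 9 of 22 were lower and 6 higher, with a median log2 fold change of -0.014. FKBP4, the immunophilin that accompanies steroid receptors, fell from 386 ± 1.17 to 251 ± 5.73 CPM (SD, n = 3 each), with a log2 fold change of -0.62 (standard error 0.0323; Benjamini-Hochberg adjusted p = 3.56e-15, edgeR quasi-likelihood test). FNIP2, which slows the ATP cycle of HSP90, rose from 8.91 ± 0.374 to 15.4 ± 1.42 CPM, with a log2 difference of 0.78 (standard error 0.0840). CDC37, which brings kinases to HSP90 and is the most abundant of the list per length, rose from 939 ± 21.9 to 1038 ± 19.0 CPM, with a log2 difference of 0.15 (standard error 0.0330).

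Of 9 listed small heat shock proteins other than HSPB1, 8 were found by symbol, of which 4 had enough counts to be tested and 2 fell. The ninth, HSPB11, is in the table as IFT25 and is not in these counts; looked up after seeing the data, it fell from 80.8 ± 2.06 to 70.1 ± 1.81 CPM (SD, n = 3 each), by 0.21 on the log2 scale. HSPB8, the partner of BAG3, fell from 39.1 ± 2.68 to 30.8 ± 0.351 CPM (SD, n = 3 each), with a log2 fold change of -0.35 (standard error 0.0520; Benjamini-Hochberg adjusted p = 2.87e-06, edgeR quasi-likelihood test). HSPB6, at 2.17 ± 0.169 and 1.55 ± 0.245 CPM, had a log2 fold change of -0.48 whose call was lost under 8 of 14 alternatives. Among these were the fits without CP+siNC replicate 1 or 2 and without CP+siNAT10 replicate 2 or 3, with values from -0.51 to -0.36. CRYAB was measured at 6.60 ± 0.456 and 6.13 ± 0.0969 CPM and did not pass.

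The chaperonin CCT, the ring that folds actin and tubulin, and prefoldin, which brings it clients, mostly fell. Of 14 genes 12 fell and 1 rose, where 22.3% of all tested genes and 39.5% of those at or above 100 CPM fell, with a median log2 fold change of -0.19 beside 0.0070 for all tested genes and -0.024 for those at or above 100 CPM. PFDN4 fell from 171 ± 2.44 to 130.3 ± 3.35 CPM (SD, n = 3 each), with a log2 fold change of -0.39 (standard error 0.0340; Benjamini-Hochberg adjusted p = 1.47e-10, edgeR quasi-likelihood test). CCT4 fell by 0.34 on the log2 scale with a standard error of 0.0340. PFDN2 was the gene that rose, by 0.14, and CCT5 at -0.080 did not pass. With scaling by library size only, 9 of the 14 fell and 1 rose.

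**Figure D5:**
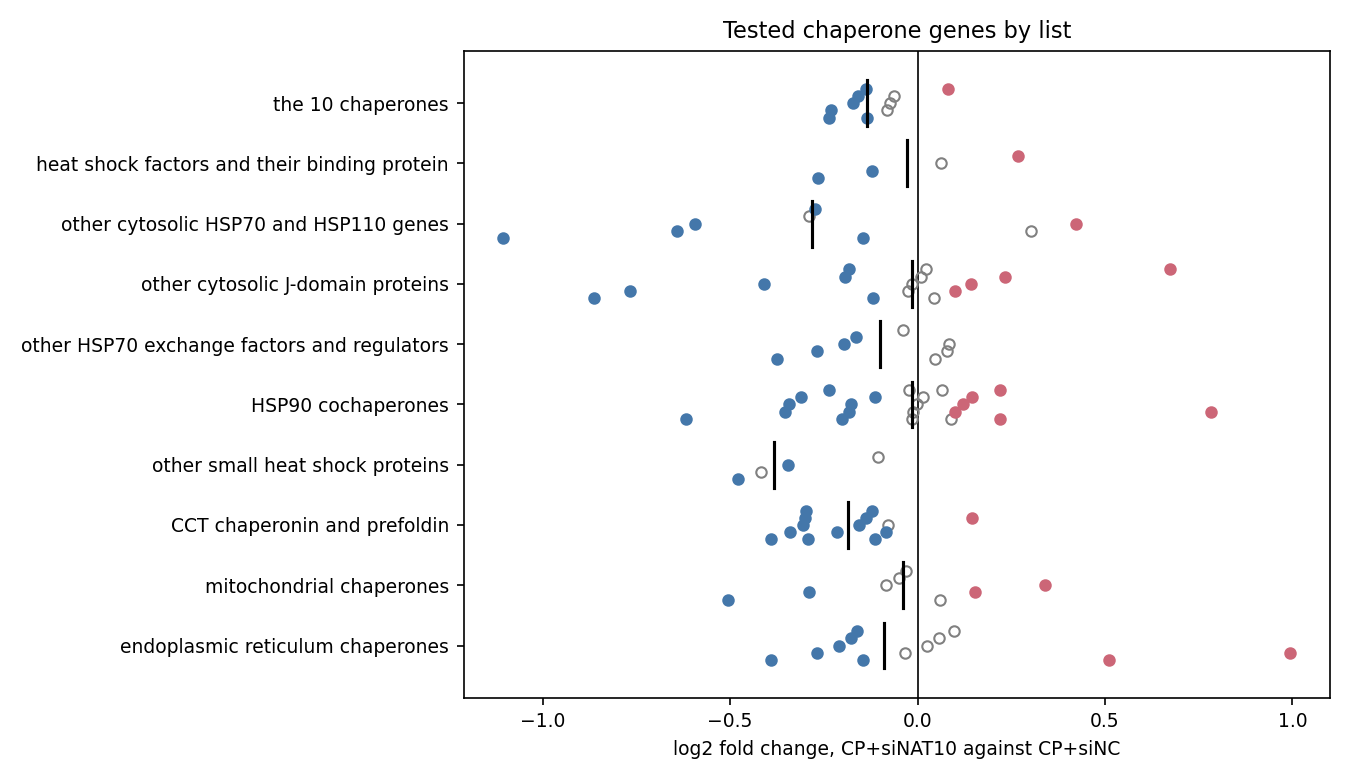
Log2 fold change of CP+siNAT10 against CP+siNC for the tested genes of each chaperone list, 1 point per gene. Filled blue and red points fell or rose at an adjusted p under 0.05, open points did not pass, and vertical bars are medians; the CCT and prefoldin genes lie left of 0 except PFDN2 at 0.14.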

How the data were processed

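RNA from 6 libraries of Cisplatin-treated HK-2 cells was sequenced from stranded mRNA libraries with molecular identifiers meant to correct for duplicates, and the samples were grouped by their labels. Per the submitters' processing notes, Trimmomatic 0.36, STAR 2.5.3a, featureCounts (Subread 1.5.1) and edgeR 3.12.1 were used on GRCh38; no tool listed there merges the identifiers, so duplicates may remain in the counts. The authors deposited raw gene counts with gene lengths. The settings for strand and for reads on several genes are not given in the sources used here. From these, edgeR 4.0.16 under R 4.3.3 (limma 3.58.1) was run with filterByExpr (minimum count 10, minimum total 15), TMM scaling and the quasi-likelihood test, with Benjamini-Hochberg adjustment over 19874 tested genes. The steps were tested on simulated data with planted changes larger than those of the 10 chaperones, so that test does not cover calls of their size. The biological coefficient of variation was 3.00%. Members and gene lists were chosen with earlier results of these data known. Named were the 10 chaperones, NAT10, and from each list the most abundant gene per length and those with the 2 smallest p; others are marked in the text. Sequences came from RefSeq and GENCODE 29, read with Python 3.11.15 and pandas 2.3.3, and plots were drawn with matplotlib 3.10.9. Alternatives were other scalings, filters, DESeq2 1.42.0, edgeR's exact test, a replicate block, each library left out, and summed HSPA1A and HSPA1B.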

Additional observations from a re-analysis of the deposited data

How the results depend on the processing

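Of 143 alternative values of the 10 log2 fold changes, none changed direction and 132 kept their side of the threshold. The value of the summed copies is counted for HSPA1A and again for HSPA1B. The TMM factors were 0.976 to 0.993 in CP+siNC and 1.008 to 1.017 in CP+siNAT10. Scaling by library size only moved all 10 values upward, HSP90AA1 from -0.074 to -0.035, HSPA1B from -0.134 to -0.096 and HSPA8 from 0.080 to 0.118. The 6 genes that fell did so in every alternative. HSPA8 lost its call, so that 0 of the 10 genes rose, with median-of-ratios scaling (log2 fold change 0.077), upper quartile scaling (0.075), the filter of 10 counts in 3 libraries (0.077) and the replicate block (0.080). Its adjusted p ran from 0.00152 to 0.132 over edgeR and DESeq2 alternatives. Leaving out each library in turn gave HSPA8 values from 0.071 to 0.086, kept only without CP+siNC replicate 1, with 0 to 1 gene higher and 6 to 8 lower. The values of HSP90AA1 then ran from -0.104 to -0.038 and those of HSP90AB1 from -0.13 to -0.037, both called only without CP+siNC replicate 3. The log2 ratio difference of HSP90AA1 to HSP90AB1 ran from -0.0025 to 0.022, and CALR from -0.019 to 0.047. By the length of 1 transcript, added after seeing the data, levels per 1000 bases in CP+siNC and CP+siNAT10 were 2162 and 2055 CPM for HSP90AA1, 1655 and 1565 for HSP90AB1, 407 and 430 for HSPA8, 210.1 and 187 for HSPH1, 184 and 157 for HSPA1A, 140.4 and 119 for HSPB1, 99.6 and 90.5 for DNAJB1, 92.6 and 82.9 for HSPA4, and 44.7 and 42.8 for BAG3. With scaling by library size only, HSPA8 stood at 204 and 221 RPKM, and HSPA4 at 79.9 RPKM in CP+siNAT10. The causes were not tested. Same-numbered libraries did not deviate together (r of -0.0423, 0.0106 and -0.143 across genes), so the replicate block rests on a number only; it gave 8526 called genes beside 8771. DESeq2 called 6692.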

Other observations

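Chaperones of other compartments were measured beside the cytosolic ones. Of 8 mitochondrial chaperone genes 2 fell and 2 rose, where 22.3% of all tested genes fell and 21.8% rose. GRPEL1, the nucleotide exchange factor of mitochondrial HSP70, fell from 77.8 ± 5.46 to 54.8 ± 1.25 CPM (SD, n = 3 each), with a log2 fold change of -0.51 (standard error 0.0455; Benjamini-Hochberg adjusted p = 3.11e-10, edgeR quasi-likelihood test). HSPE1, the cap of the HSP60 ring and the most abundant of the list per length, fell by 0.29 on the log2 scale, while its partner HSPD1, named after its values were seen, was measured at 490.03 ± 11.8 and 474 ± 4.34 CPM and did not pass. CLPB (0.34) and DNAJA3 (0.15), named after their values were seen, rose. The count of rises was 1 with DESeq2 and without CP+siNC replicate 1, CP+siNAT10 replicate 2 or CP+siNAT10 replicate 3.

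Of 12 chaperone genes of the endoplasmic reticulum 6 fell and 2 rose, beside the same shares of all tested genes. Among genes at or above 100 CPM, where several of these lie, 39.5% fell and 30.3% rose. The counts are not read as particular to this list. Those that fell, named after their values were seen, were DNAJB9 (log2 fold change -0.39), HSP90B1 (-0.27), SERPINH1 (-0.21), PDIA4 (-0.18), CANX (-0.16) and HYOU1 (-0.15). SIL1, an exchange factor of the resident HSP70, rose from 5.26 ± 0.361 to 10.5 ± 0.348 CPM (SD, n = 3 each), with a log2 fold change of 0.99 (standard error 0.0963; Benjamini-Hochberg adjusted p = 1.3e-09, edgeR quasi-likelihood test). DNAJC3, which inhibits the kinase PERK and acts as a cochaperone there, rose by 0.51. CALR, the most abundant of the list by the lengths in the table, was measured at 1127 ± 54.8 and 1146 ± 44.0 CPM and did not pass. By the length of a single transcript HSP90B1 stood above it in CP+siNC, at 1065 ± 43.4 beside 592 ± 28.8 CPM per 1000 bases.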
